A study of Homo sapiens with 4 samples.

Results

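The 10 genes described here are *HMOX1*, *HMOX2*, *FTH1*, *FTL*, *SLC7A11*, *GCLM*, *GCLC*, *NQO1*, *TXNRD1* and *SRXN1*, which are targets of the transcription factors Nrf2 and Bach1 or, for *HMOX2*, the constitutive relative of such a target. Their probes were found by the transcript accession of each spot other than controls, which gave 19 of 41000 probes and 10 of the 17721 genes that could be named on the arrays. Of these, 17 probes of 9 genes gave a ratio between arrays, and they were well above background on all 4 arrays. *SRXN1* and 1 of the 3 probes of *SLC7A11* were not well above background on any array.

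Total RNA of Nalm-6 cells, an established human pre-B cell line, was measured on Agilent single-color arrays. There was 1 array for wild-type cells, 1 for Arp5 KO cells and 1 for Arp8 KO cells, in which the gene of the actin-related protein had been disrupted through homologous recombination. A further array, with the label Arp8 overexpression, came from Arp8 KO cells that carried Arp8 under a tetracycline-regulated (Tet-Off) system. No treatment is named for any of the 4, and all arrays lay on 1 slide and came from 1 scan. With 1 array per genotype no difference has a replicate check, no p-value is given, and the number of arrays limits the precision. A change of genotype and a difference between cultures or clones cannot be told apart.

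The signal of *ACTR5*, which encodes Arp5, was 1909 units for wild type, 65.3 for Arp5 KO cells, 1849 on the array labelled Arp8 KO and 2088 on the labelled Arp8 overexpression array. The 2 probes of *ACTR8*, which encodes Arp8, had 1092 and 2149 units in wild-type cells, 785 and 1654 on the array labelled Arp8 KO, and 679 and 1857 on the labelled Arp8 overexpression array. *ACTR8* therefore cannot tell the last 2 arrays apart, and the position of its probes in the mRNA was not looked at. They are called by their labels throughout, and no direction below shows which of them carries the introduced gene.

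Nrf2 is a transcription factor that is degraded through Keap1 in resting cells and accumulates under oxidative or electrophilic stress. It pairs with small Maf proteins on antioxidant response elements, which also bind Bach1, a repressor that heme releases from DNA. The best known target is *HMOX1*, which encodes heme oxygenase-1, the inducible enzyme that opens heme to biliverdin, iron and carbon monoxide.

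The core of an antioxidant response element was searched for as TGACNNNGC, on both strands, in RefSeq promoter windows of GRCh38.p14 that run from 250 bases before to 50 bases after a transcription start. It was present in 13.3% of all 35116 windows. The members had 9 windows from 7 genes, and the core was present in 3 of them. No window was matched for *HMOX1*, *FTH1* and *SLC7A11*. The windows below are shown because they hold the core in genes measured well above background (*GCLM* and *TXNRD1*) or belong to the member with the lowest ratio on the array labelled Arp8 KO (*NQO1*, with no match). Capitals mark the core, which reads GCNNNGTCA where it lies on the other strand, and each sequence is that of the strand of its gene.
GCLM, chr1:93909381-93909680, minus strand: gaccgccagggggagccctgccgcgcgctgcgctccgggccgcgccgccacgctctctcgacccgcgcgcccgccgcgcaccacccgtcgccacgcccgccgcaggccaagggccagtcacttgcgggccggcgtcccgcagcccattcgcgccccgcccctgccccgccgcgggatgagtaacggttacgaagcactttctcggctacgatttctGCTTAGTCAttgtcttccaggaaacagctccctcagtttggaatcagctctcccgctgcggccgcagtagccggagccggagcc
TXNRD1, chr12:104215529-104215828, plus strand: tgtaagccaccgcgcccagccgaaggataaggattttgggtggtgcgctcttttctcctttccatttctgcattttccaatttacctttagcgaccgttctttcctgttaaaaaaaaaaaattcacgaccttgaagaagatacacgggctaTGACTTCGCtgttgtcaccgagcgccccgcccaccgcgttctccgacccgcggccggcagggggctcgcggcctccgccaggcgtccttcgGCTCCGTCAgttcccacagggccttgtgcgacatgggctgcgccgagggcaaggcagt
TXNRD1, chr12:104286782-104287081, plus strand: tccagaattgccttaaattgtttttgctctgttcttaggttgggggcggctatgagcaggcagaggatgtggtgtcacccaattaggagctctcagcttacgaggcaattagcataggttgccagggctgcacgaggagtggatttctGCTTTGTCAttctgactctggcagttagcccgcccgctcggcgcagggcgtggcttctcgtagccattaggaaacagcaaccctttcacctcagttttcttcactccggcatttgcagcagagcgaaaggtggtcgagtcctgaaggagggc
NQO1, chr16:69726511-69726810, minus strand: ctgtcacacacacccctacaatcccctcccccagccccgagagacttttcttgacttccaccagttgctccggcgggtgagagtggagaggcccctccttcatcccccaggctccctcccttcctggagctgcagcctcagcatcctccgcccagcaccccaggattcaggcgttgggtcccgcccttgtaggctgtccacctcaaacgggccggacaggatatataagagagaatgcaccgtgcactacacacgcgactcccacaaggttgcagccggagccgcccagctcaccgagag
In *GCLM* the core lay at bases -34 to -26 from the start. In the first *TXNRD1* window it lay at bases -99 to -91 and again across the start, and in the second at bases -102 to -94. A match describes these letters only, and no match says only that they are not in this window.

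The heme oxygenases were examined first. *HMOX1* was measured by 10 spots of 1 probe, A_23_P120883. The spots ranged from 92.8 to 113 units in wild-type cells, with a median of 98.8. They ranged from 34.5 to 40.8 in Arp5 KO cells, with a median of 38.0. On the array labelled Arp8 KO they ranged from 55.6 to 62.7, with a median of 58.7, and on the labelled Arp8 overexpression array from 107 to 130, with a median of 118. The order from low to high was thus Arp5 KO, labelled Arp8 KO, wild type and labelled Arp8 overexpression. The spots of the last pair overlapped, and those of the other neighbours did not.

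**Figure D1:**
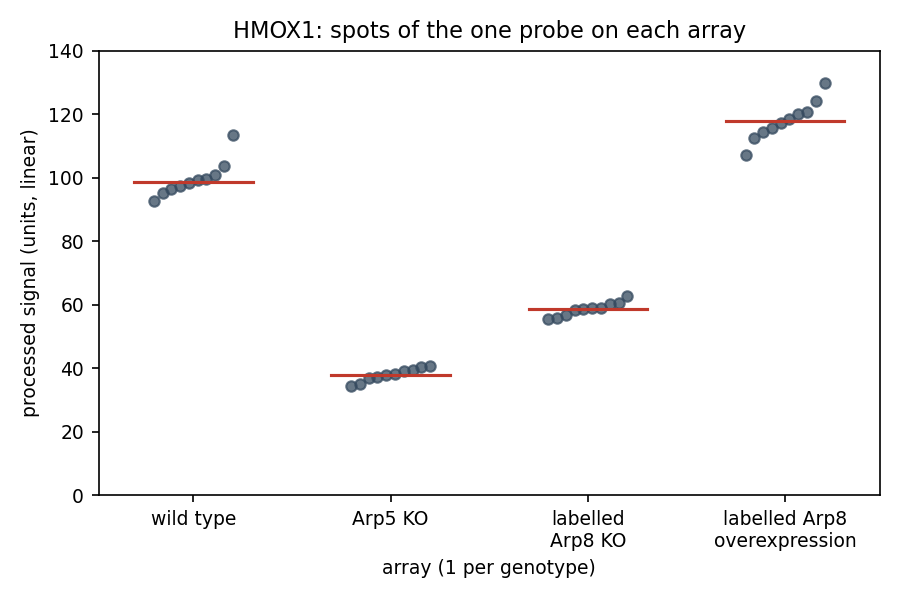
Processed signal of the 10 *HMOX1* spots on each of the 4 arrays, on a linear axis, with the median as a line. The spots of Arp5 KO cells reach 40.8 units and those of the array labelled Arp8 KO start at 55.6, while those of wild-type cells and of the labelled Arp8 overexpression array overlap between 107 and 113 units.

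After scaling each array by its 75th percentile, *HMOX1* was 2.58-fold lower in Arp5 KO than in wild-type cells, a log2 ratio of -1.37 with a standard error of 0.04 over the 10 spots. With the normexp background correction, which adds an offset of 50 units and so pulls dim ratios toward 0, the log2 ratio was -0.65, within 2-fold. The standard error covers the spots of these arrays and not the variation between cultures. On the array labelled Arp8 KO the log2 ratio to wild-type cells was -0.78 (standard error 0.03; -0.44 with normexp), which is within 2-fold. On the labelled Arp8 overexpression array it was 0.22 (standard error 0.04; 0.13 with normexp). Between the 2 Arp8-labelled arrays it was -1.001 (standard error 0.03), on the 2-fold line within the error, and -0.57 with normexp. *HMOX1* varied over the 4 arrays by 1.59 on the log2 scale, more than 98.0% of the 27921 probes well above background on all of them.

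The *HMOX1* probe is dim, so it was also set among the probes with a mean signal from 20 to 200 units, a range chosen after seeing the data. In Arp5 KO over wild-type cells 0.538% of all measured probes and 0.688% of the dim ones had a lower ratio. For the array labelled Arp8 KO over wild-type cells these shares were 3.80% and 6.05%. *HMOX2*, the constitutive heme oxygenase, had 10559, 10618, 11390 and 11728 units by probe A_23_P100501 for wild type, Arp5 KO, labelled Arp8 KO and labelled Arp8 overexpression. Over its 2 probes every ratio lay between -0.18 and 0.15. The low *HMOX1* values were thus not shared by *HMOX2*.

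Ferritin stores the iron that heme breakdown releases, and its heavy and light chains are encoded by *FTH1* and *FTL*. *FTH1* had 5 probes, which may also read its processed pseudogenes. Probe A_32_P111565 gave 20483 units for wild type, 22057 for Arp5 KO cells, 18145 on the array labelled Arp8 KO and 23233 on the labelled Arp8 overexpression array. The 5 probes had log2 ratios to wild-type cells from 0.09 to 0.25 in Arp5 KO cells and from -0.26 to -0.07 on the array labelled Arp8 KO. Between the 2 Arp8-labelled arrays they lay from -0.38 to -0.29, against a technical SD of 0.06. *FTL* had 3 probes, which also may read pseudogenes, and by A_23_P50498 its signals were 33677, 29919, 30013 and 29082 units in the same order. Its 9 ratios to wild-type cells lay from -0.25 to -0.15. No ferritin probe was beyond 2-fold.

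Cystine taken up by xCT, the transporter whose light chain *SLC7A11* encodes, feeds glutathione synthesis. Probe A_32_P165477 of *SLC7A11* had 138 units for wild type, 75.3 for Arp5 KO cells, 122 on the array labelled Arp8 KO and 120 on the labelled Arp8 overexpression array. Probe A_32_P42684 had 70.1, 32.3, 67.3 and 49.9 units in this order. Arp5 KO cells were the lowest by both probes. The log2 ratios of Arp5 KO to wild-type cells were -0.85 (technical SD 0.10) and -1.10 (technical SD 0.24). The probes thus lay on either side of the 2-fold line, with -1.10 beyond it by less than its technical SD. Their median, -0.97, was within 2-fold, as was its value with normexp, -0.45. With quantile normalization their median was -1.04, beyond 2-fold. On the array labelled Arp8 KO the ratios were -0.20 and -0.08.

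The catalytic and the modifier subunit of glutamate-cysteine ligase, the first enzyme of glutathione synthesis, are encoded by *GCLC* and *GCLM*. *GCLC* had 1037 units for wild type, 1299 for Arp5 KO cells, 1308 on the array labelled Arp8 KO and 1164 on the labelled Arp8 overexpression array. Relative to wild-type cells the log2 ratios were 0.35, 0.32 and 0.14 with a technical SD of 0.07. *GCLM*, whose window holds the core, had 1439, 1308, 1491 and 1350 units, and its ratios lay from -0.12 to 0.15 over the 4 comparisons. None of these ratios was beyond 2-fold.

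The redox enzymes were NAD(P)H quinone dehydrogenase, encoded by *NQO1*, the cytosolic thioredoxin reductase, encoded by *TXNRD1*, and sulfiredoxin, encoded by *SRXN1*. *NQO1* had 49.2 units for wild type, 28.1 for Arp5 KO cells, 20.1 on the array labelled Arp8 KO and 30.8 on the labelled Arp8 overexpression array, by 1 spot on each. Wild-type cells were the highest. Relative to wild-type cells the log2 ratios were -0.78, -1.31 and -0.70, with technical SDs of 0.24, 0.32 and 0.28. With normexp they were -0.32, -0.56 and -0.37. The ratio of -1.31 is beyond 2-fold by less than its technical SD. It is beyond by more than the SD of 0.22 from a finer grouping of signals added after seeing the data. That SD is a median over only 5 repeated probes, whose SDs ran from 0.16 to 0.51. The 20.1 units of *NQO1* lie at the low end of that group, which spans 20 to 50 units. With normexp the ratio is within 2-fold, so its side of the threshold is uncertain. Of all measured probes 0.945% had a lower ratio on that array, and of those from 20 to 200 units 1.78%.

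*TXNRD1*, whose windows hold the core, had 1111 units for wild type, 967 for Arp5 KO cells, 959 on the array labelled Arp8 KO and 976 on the labelled Arp8 overexpression array. Its ratios to wild-type cells were -0.18, -0.23 and -0.21, with a technical SD of 0.07. *SRXN1* had 4.66, 2.12, 3.13 and 1.90 units, none of them well above background, so no ratio is given. *GCLM* and *TXNRD1*, the members with the core in a window, were within 2-fold in the 4 comparisons. Of the list genes named below, windows are described only for *CBR1*, *ABCB6*, *MAFF*, *TXN*, *SLC48A1* and *AKR1C3*. *CBR1*, *ABCB6* and *MAFF* have 1 window each with the core, while the windows of *TXN*, *SLC48A1* and *AKR1C3* and the second of *MAFF* have none.

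**Figure D2:**
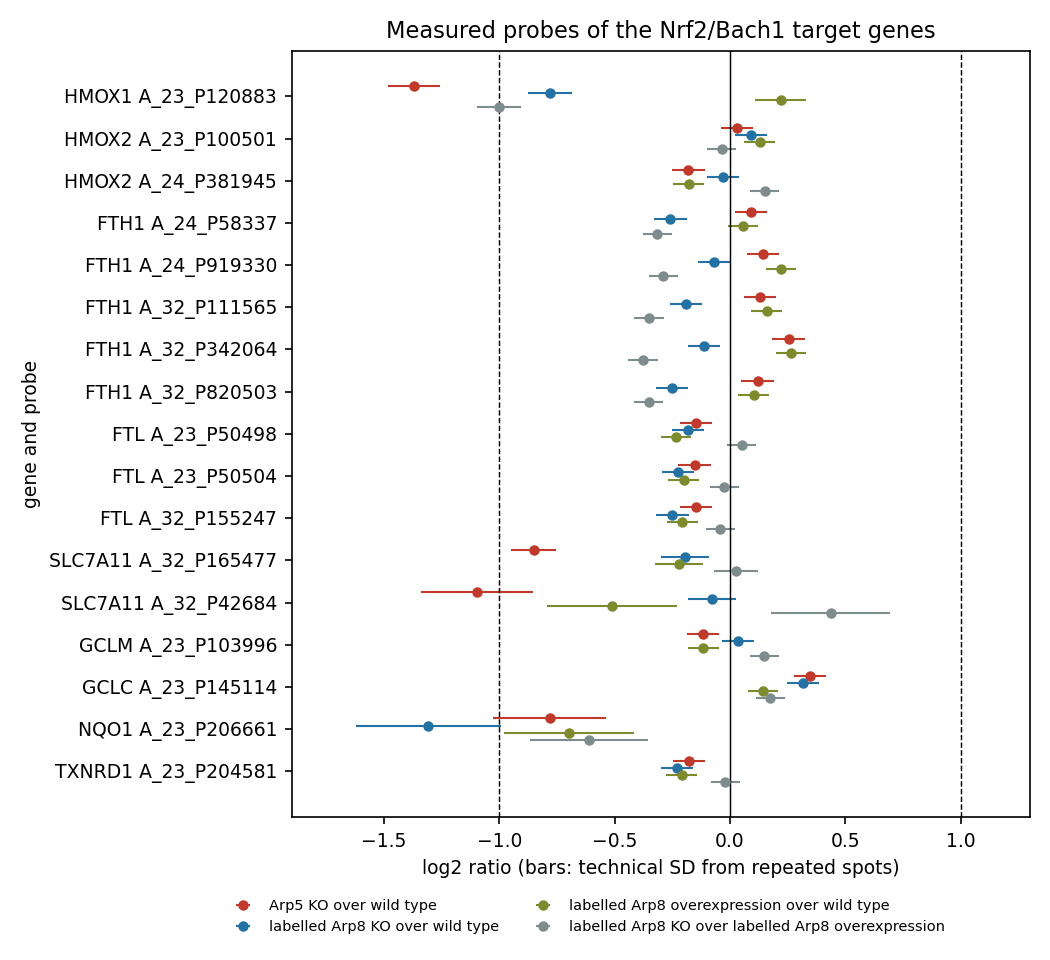
Log2 ratios of the 17 measured member probes in the 4 comparisons, with the technical SD from repeated spots as bars and dashed lines at 2-fold. The bars of *HMOX1* come from its own spots, and those of the other members from the median over repeated probes of like signal. *HMOX1* at -1.37 and *SLC7A11* at -1.10 in Arp5 KO cells and *NQO1* at -1.31 on the array labelled Arp8 KO lie beyond the line, and *HMOX1* at -1.001 between the 2 Arp8-labelled arrays lies on it. *SLC7A11* and *NQO1* pass the line by less than the technical SD shown as their bars.

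Of the measured members 1 of 9 genes (*HMOX1*), or 2 of 17 probes with 1 of *SLC7A11*, fell beyond 2-fold in Arp5 KO cells, where 1.14% of all 29912 measured probes did and 1.71% of those from 20 to 200 units. The *SLC7A11* probe passed the line by less than its technical SD. The gene count in Arp5 KO cells was 0 with the normexp background correction and 2 (*HMOX1* and *SLC7A11*) with quantile normalization. On the array labelled Arp8 KO 1 of 9 genes and 1 of 17 probes (*NQO1*) was lower beyond 2-fold, and 0 with normexp, against 2.06% of all probes and 3.45% of those from 20 to 200 units. On the labelled Arp8 overexpression array 0 of 9 genes and 0 of 17 probes were, against 2.76% and 5.49%. Between the 2 Arp8-labelled arrays 1 of 9 genes and 1 of 17 probes (*HMOX1*, on the line) was lower, and 0 genes with normexp or with the percentile over detected probes, against 0.923% and 1.65%. No member was higher beyond 2-fold, where 1.17%, 1.48%, 1.48% and 0.936% of all probes were, in the same order of comparisons. Counts of 1 gene are too small to set the members apart from other probes.

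The median log2 ratio over the 9 genes was -0.15 in Arp5 KO cells, against 0.04 over all measured probes. It was -0.19 on the array labelled Arp8 KO, against 0.01, and -0.12 (-0.19 with normexp) on the labelled Arp8 overexpression array, against 0.01. Between the last 2 arrays it was -0.02, against 0.01. The first 3 comparisons share the wild-type array. Taken against the labelled Arp8 overexpression array instead, a reference chosen after seeing the data, Arp5 KO cells had -1.59 for *HMOX1*, -0.61 for *SLC7A11* and -0.09 for *NQO1*. On the array labelled Arp8 KO *NQO1* had -0.61 against that reference, within 2-fold, so its call beyond 2-fold was made only against wild-type cells.

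**Figure D3:**
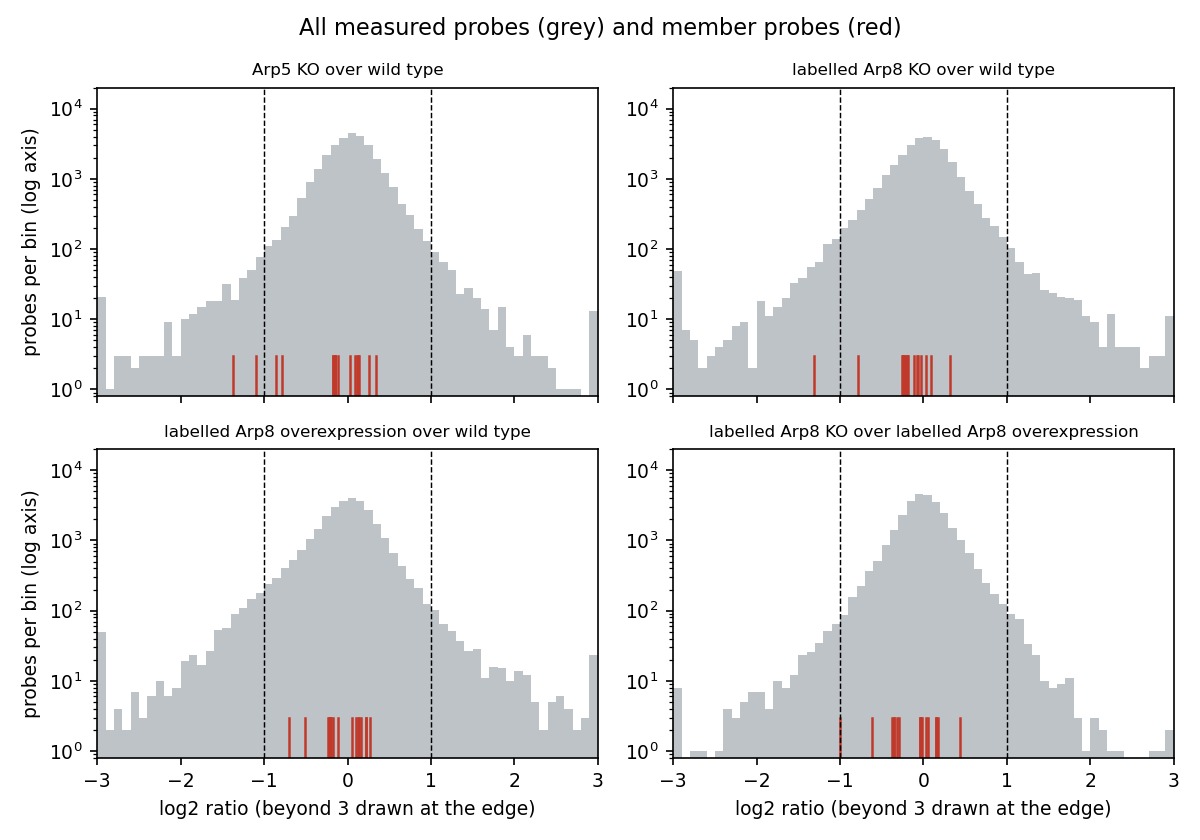
Number of measured probes by log2 ratio in each of the 4 comparisons, with a log vertical axis, and the 17 member probes as red marks. Dashed lines show 2-fold, and the member marks lie mostly within them, with *HMOX1* at -1.37 as the lowest in Arp5 KO cells.

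The genes closest to *HMOX1* over the 3 log2 ratios to wild-type cells were sought among 19272 named probes well above background on all 4 arrays. They were *IRF8*, *CD180*, *SEPTIN1*, *CKLF* and *COPZ1*, with root mean square differences of 0.15, 0.18, 0.20, 0.22 and 0.23 by the nearest probe of each. The first 3 genes had 1 probe, the other 2 probes of *CKLF* gave 0.23 and 0.27, and the second probe of *COPZ1* gave 0.31. *IRF8*, a transcription factor of B and myeloid cells, had 80.8 units for wild type, 33.6 for Arp5 KO cells, 44.3 on the array labelled Arp8 KO and 82.9 on the labelled Arp8 overexpression array. The likeness rests on 3 ratios that share an array and says nothing of shared control.

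Other genes of the pathway were read from 5 lists. Of the NADPH supply enzymes 6 of 6 were measured and none was beyond 2-fold in any comparison, with *TKT* at -0.01 and *TALDO1* at 0.06 in Arp5 KO cells. Of 19 other detoxification and redox targets 13 were measured, and 1 was lower beyond 2-fold in each comparison with wild-type cells, against 1.14%, 2.06% and 2.76% of all probes. *AKR1C3*, named after its values were seen, had 15.6 units in wild-type and 26.1 in Arp5 KO cells, a ratio of 0.77 (technical SD 0.24). It was not well above background on the 2 Arp8-labelled arrays, where its ratios of -0.74 and -0.83 are bounds, so the count is a minimum there. In Arp5 KO cells the gene counted was *CBR1*, a carbonyl reductase, with 1224 units in wild-type and 548 in Arp5 KO cells and a ratio of -1.14. On both other arrays it was *TXN*, which encodes thioredoxin, the substrate of the *TXNRD1* product. By probe A_23_P60248 *TXN* had 40465 units for wild type, 44747 for Arp5 KO cells, 19691 on the array labelled Arp8 KO and 20208 on the labelled Arp8 overexpression array, and by its 2 probes the median ratios were -1.10 on both Arp8 arrays.

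The next list held 11 genes of CNC, BACH and small MAF factors and of the Keap1 ligase, which acts on the Nrf2 protein. None of the 10 measured in Arp5 KO cells was beyond 2-fold, 1 of 10 was lower on the array labelled Arp8 KO, and 1 of 11 was lower and 1 higher on the labelled Arp8 overexpression array. Of all probes 1.14%, 2.06% and 2.76% were lower and 1.17%, 1.48% and 1.48% higher. *NFE2L2*, which encodes Nrf2, had ratios to wild-type cells of -0.08, 0.07 and -0.23, and *BACH1* had -0.05, -0.01 and -0.15. *MAFF*, a small Maf gene, had 51.6, 37.5, 25.7 and 25.6 units and was at -1.02 and -1.04 on the 2 Arp8-labelled arrays, which is on the 2-fold line within its technical SD. *NFE2* was well above background only on the labelled Arp8 overexpression array, at 105.3 units, at least 13.4-fold higher than in wild-type cells. Of 15 genes of heme and iron handling 14 were measured. Higher beyond 2-fold were 1 of 14 in Arp5 KO cells, 1 of 14 on the array labelled Arp8 KO and 0 of 14 on the labelled Arp8 overexpression array, against 1.17%, 1.48% and 1.48% of all probes, and none was lower. The list medians were -0.07, -0.01 and 0.04, with 6, 7 and 7 of 14 genes above 0. *SLC48A1*, a heme transporter, rose in Arp5 KO cells, from 2337 to 5206 units (log2 ratio 1.18), and had 4547 and 4565 units on the Arp8 arrays, with ratios of 0.94 on both. *ABCB6*, a porphyrin transporter, rose on the array labelled Arp8 KO, with a median log2 ratio of 1.13 over its 2 probes, and had 0.92 in Arp5 KO cells and 0.74 on the labelled Arp8 overexpression array.

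Of the 9 genes of cystine import, glutathione and the ATF4 branch 7 were measured and none was beyond 2-fold. *SLC3A2* and *GGT1* had no named probe, so no cystine import gene of this list was measured. The values are those of *GSS*, *CHAC1*, *ATF4*, *ASNS*, *DDIT3*, *TRIB3* and *SESN2*. The median log2 ratio of these 7 was 0.37 in Arp5 KO cells, with 6 of 7 above 0. Of all probes 56.4% were above 0 there, and their median was 0.04. The median of the 7 genes was 0.48 on the array labelled Arp8 KO, with 7 of 7 above 0, against 51.3% and 0.01. It was 0.20 on the labelled Arp8 overexpression array, with 6 of 7 above 0, against 51.6% and 0.01. These 3 comparisons share the wild-type array. *SLC7A11*, also a target of ATF4, had a negative ratio in Arp5 KO cells. *ASNS*, another such target that was named after its values were seen, had 0.61. The part of ATF4 in these values was not tested. The genes nearest 0 in the list were *GSS*, at -0.33 and 0.03, and *ATF4*, at 0.22 and 0.06, for Arp5 KO and labelled Arp8 KO.

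**Figure D4:**
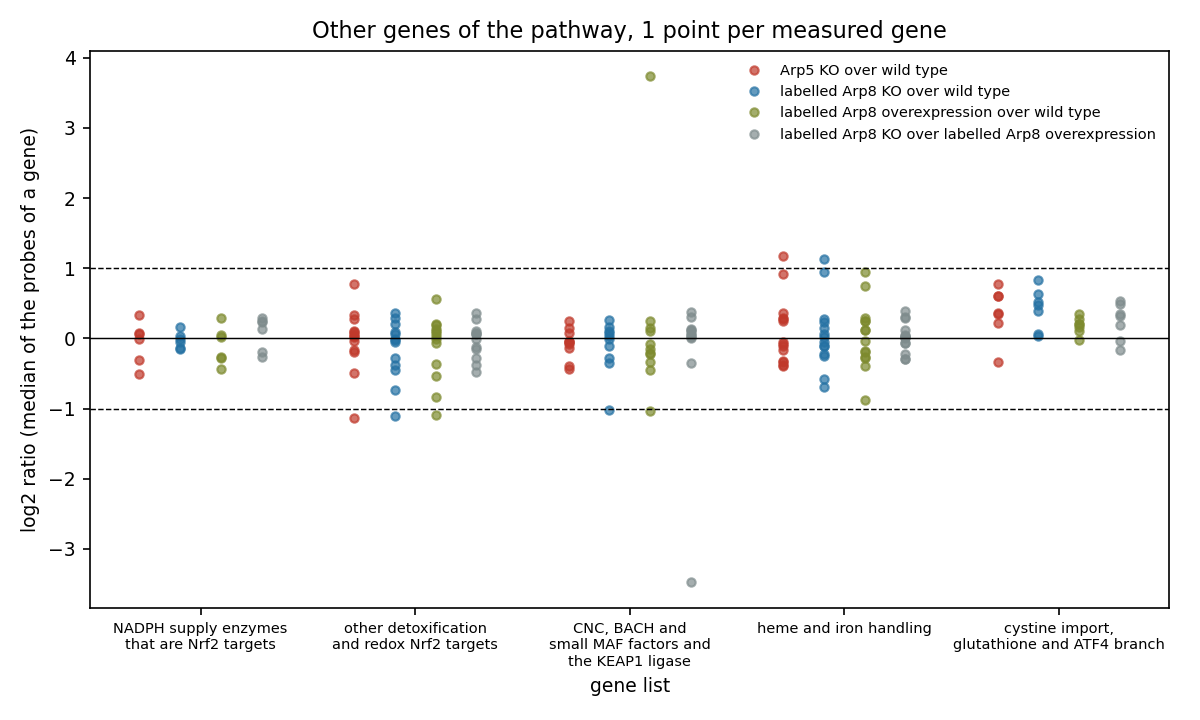
Log2 ratios of the measured genes of the 5 lists, 1 point per gene and comparison, with dashed lines at 2-fold. Most points lie within 2-fold, and the farthest are those of *NFE2*, at 3.74 and -3.47, which are bounds.

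The cell type was checked by markers. All 13 probes of 9 pre-B genes were well above background on all 4 arrays, with summed signals of 553365 units for wild type, 547883 for Arp5 KO cells, 519332 on the array labelled Arp8 KO and 539386 on the labelled Arp8 overexpression array. *IGLL1* had the brightest probe. None of the 9 genes was beyond 2-fold, and their median ratios to wild-type cells were -0.09, -0.06 and 0.04. *CD79B* had -0.18, 0.18 and 0.55. *CD79A*, named like *VPREB1* after its values were seen, had -0.56, -0.13 and 0.50, in the same order of arrays as *HMOX1*, and its part in the *HMOX1* values was not tested. *VPREB1* had -0.61 on the array labelled Arp8 KO, and 1 of the 3 *IGLL1* probes had -0.84 on the labelled Arp8 overexpression array. Of the myeloid markers *LYZ* had 55.4 units for wild type, 46.3 for Arp5 KO cells, 143 on the array labelled Arp8 KO and 140 on the labelled Arp8 overexpression array, while *MPO* was not well above background on any. *CSF1R* had 11.1, 11.0, 16.2 and 25.3 units in this order. The summed signal of the 4 myeloid probes was 194, 188, 287 and 282 units in this order, and *CD14* did not move with it, at 119, 124, 123 and 110 units. Summed signals of T cell markers were 95.6, 95.1, 94.1 and 99.2 units, and of erythroid markers 120.3, 115, 122 and 117. The part of *LYZ* and *CSF1R* in the values of *NQO1* and *TXN* on the Arp8 arrays was not tested.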

How the data were processed

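The authors deposited the scanner output of 4 arrays (Agilent Feature Extraction 10.5.1.1). The processed signal there is a linear intensity from which the software had taken the background. Their second deposited file, a table of intensities, equals that signal times 1 factor per array (0.847, 0.838, 0.825 and 0.807 for wild type, Arp5 KO, labelled Arp8 KO and labelled Arp8 overexpression; medians 127, 128, 122.5 and 119), whose origin is unknown. From 28581 to 29506 of 41000 probes were well above background per array, and no spot was saturated.

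Outlier spots were left out, log2 signals were taken relative to the 75th percentile, and spots of a probe were averaged. A ratio needed the brighter array to be well above background. A dimmer side was raised to the lowest such signal, and the ratio is then a minimum. A gene took the median of its probes. RefSeq accessions of GRCh38.p14 named 26222 probes. The technical SD combined the spot SDs of both arrays. A repeated probe, among the members only that of *HMOX1*, used the SDs of its own spots. Other probes took the median over repeated probes whose dimmest signal lay under 10, from 10 to 50, from 50 to 500 or above 500 units. A finer grouping from 20 to 50 units, the other reference array and the range from 20 to 200 units were chosen after seeing the data. Named genes were all members, *ACTR5*, *ACTR8*, the 5 nearest *HMOX1* and list genes beyond 2-fold in any comparison (at most 5 per list). A list without such genes gave the 2 nearest 0, by the size of the median ratio of each gene over the 4 comparisons. T cell and erythroid markers are given as sums only. *NFE2L2*, *BACH1*, *AKR1C3*, *ASNS*, *CD79A*, *VPREB1*, *CD14* and *MPO* were added after their values were seen. The members and lists were chosen with earlier results of these data known. Steps were tested on simulated data, in which probes above 50 units in wild-type cells were given a log2 change of 2. That is larger than any member ratio. Smaller changes, and dimmer probes such as that of *NQO1*, were not tested in this way. Python 3.11.15, numpy 2.4.6, pandas 2.3.3, matplotlib 3.10.9, R 4.3.3 and limma 3.58.1 were used.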

Additional observations from a re-analysis of the deposited data

How the results depend on the processing

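No paired analysis was possible because the comparisons hold 1 array per genotype. Signals of dim sides, kept outlier spots, the filter on all arrays and the authors' table could not move the member ratios by more than rounding, nor could the choice of the brightest probe for genes with 1 measured probe. Of the 160 ratios that the scalings, normexp and the brightest probe could move, 20 did by more than their technical SD and 7 changed sign, with a reported size of at most 0.0746 (*HMOX2*, *GCLM*, *FTL* and *TXNRD1*). Against the labelled Arp8 overexpression array 8 of 9 ratios of Arp5 KO cells moved, and *FTH1*, *FTL* and *TXNRD1* changed sign, from 0.13 to -0.01, from -0.15 to 0.06 and from -0.18 to 0.03, and *HMOX1* had -1.59. Normexp was run on the median signal, in the absence of a mean signal, and its offset of 50 units pulls dim ratios toward 0 by construction. Under it *HMOX1* had -0.65 in Arp5 KO cells, -0.44 on the array labelled Arp8 KO and -0.57 between the Arp8 arrays. The member genes lower beyond 2-fold were then 0 in each of these comparisons, and the member median on the array labelled Arp8 overexpression was -0.19. Under quantile normalization 2 members (*HMOX1* and *SLC7A11*) were lower beyond 2-fold in Arp5 KO cells. With the percentile taken over detected probes, 0 were lower between the Arp8 arrays. At 1.5-fold 3, 2, 1 and 2 of 9 members were lower in the 4 comparisons, against 3.88%, 6.89%, 7.93% and 4.02% of all measured probes. Where not by construction, the cause was not tested. With the finer grouping the technical SD of *NQO1* on the array labelled Arp8 KO was 0.22 in place of 0.32. Its ratio then lay beyond 2-fold by more than the SD, which rests on only 5 repeated probes. Dim signals limit *NQO1* and *SLC7A11*, and *SRXN1* was not well above background.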
